A study of Gallus gallus with 3 samples.

Results

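The genes described here are transcriptional regulators of the sensory patch and of the hair cell of the inner ear, chosen by a list of symbols that sets no threshold on a measured value, although earlier results of these data were known when it was drawn up. Of 7 symbols on the list, 6 were found among the gene names deposited with the libraries, *GFI1*, *POU4F3*, *GATA3*, *EYA1*, *PAX2* and *EMX2*, of 30108 genes in all. The remaining symbol, *ATOH1*, had no entry in those names, of which 15097 are symbols and the others bare identifiers, and its level was not analysed here. RefSeq places *ATOH1* on chromosome 4 of the chicken assembly GRCg7b, from 36618981 to 36620518, as a protein-coding gene with 1 transcript.

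The study recorded from hair cells of the semicircular canal cristae of chicken embryos (Isa Brown eggs, both sexes) and then sequenced the contents of single cells by Patch-seq, in which the recording pipette collects the cytoplasm. The 3 libraries came from a single type I hair cell (E20), a single type II hair cell (E19) and whole ampullary cristae that were pooled from embryos at E16, with no treatment and no genetic change in any of them. The hair cells were told apart by the presence or absence of the low-voltage-activated K+ current *I*KL, were kept from a larger set of patched cells for the quality of their RNA, and lay at an unrecorded position in the crista. Each condition has 1 library, so values lack replicates, conditions were not tested against each other, and intervals are exact Poisson 95% intervals of the reads, or exact intervals of a ratio of Poisson counts, which cover counting error only.

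Hair cells of the inner ear arise from an otic epithelium in which PAX2, a paired-box factor of the early otic placode, and EYA1, a coactivator and phosphatase, are switched on early, and in which GATA3, a zinc finger factor, is kept in the prosensory patches and in some inner ear neurons. ATOH1, a basic helix-loop-helix (bHLH) factor, starts hair cell differentiation in birds and mammals. In the mouse it is followed by POU4F3, a POU homeodomain factor needed for hair cell survival, and GFI1, a zinc finger repressor that depends on POU4F3. EMX2, a homeodomain factor, sets the orientation of hair bundles in the mouse and the zebrafish.

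The libraries held 10779664 (type I), 11943061 (type II) and 67428006 (crista) estimated reads. A gene was taken as detected with at least 1 estimated read, which was met by 7.77% of all genes in the type I cell, 7.91% in the type II cell and 59.8% in the crista. For a gene without a read, the limit is 3 reads, which corresponds to 0.278, 0.251 and 0.0445 CPM (reads as a share of a fixed library total) in the same order. Of 22 hair cell markers with a symbol in the files, 9 had a read in the type I cell and 8 in the type II cell, among them *OCM1*, *KCNA10*, *CIB3*, *MYO6* and *TMC1*, while *MYO7A*, *CALB2*, *CDH23* and *PCDH15* were at 0 in both cells. Among 10 genes that every cell uses, 5 were also at 0 in both hair cells (among them *HPRT1*, *TBP*, *YWHAZ* and *SDHA*), and *YWHAZ* stood at 1283 TPM in the crista. A count of 0 in a hair cell therefore sets no limit on the transcript that was in the cell before amplification. TPM (transcripts as a share of a fixed total, with gene length divided out) is the deposited level within a library.

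*PAX2* was the abundant member in both hair cells, although in the organ it was the lowest of the 6 by TPM and the fourth by CPM. *PAX2* (ENSGALG00010021060, chromosome 6, 17860442 to 17953147) was read 21048 times (an estimated count) in the type I cell (95% interval 20765 to 21334), 32180.5 times in the type II cell (31829 to 32533.5) and 339 times in the crista (304 to 377). In TPM the levels were 518, 773 and 4.04, which put *PAX2* at place 367 of all genes in the type I cell, at place 272 in the type II cell and at place 10759 in the crista. By reads alone it stood higher, at place 110 and place 54, and its share of all reads was 0.195% in the type I cell and 0.269% in the type II cell. *GATA3* was the only other member with a read in a hair cell. The members detected were thus 1 of 6 in the type I cell, 2 of 6 in the type II cell and 6 of 6 in the crista, where the shares over all genes were 7.77%, 7.91% and 59.8%.

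**Figure D1:**
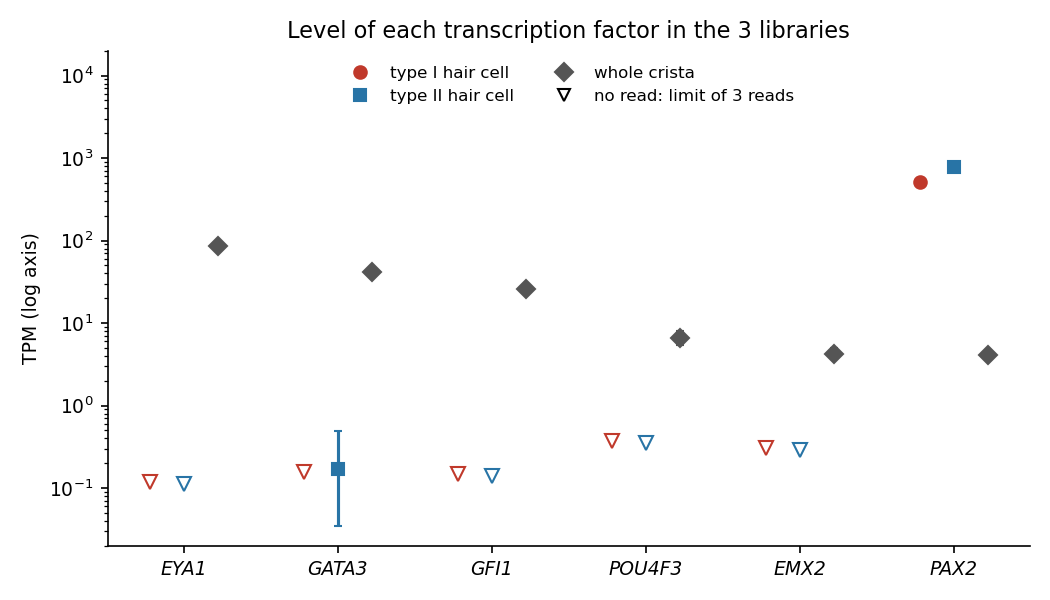
Level of the 6 genes in each library, in TPM on a log axis, with exact Poisson 95% intervals; filled symbols are genes with a read and open triangles mark the limit of 3 reads where a library had none. *PAX2* stands at 518 and 773 TPM in the hair cells and at 4.04 TPM in the crista, whereas the other 5 genes are at or below their limit in the hair cells and between 4.27 and 85.3 TPM in the crista.

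The ratio of hair cell to crista TPM for *PAX2* was 128 in the type I cell (counting interval 115 to 143) and 191 in the type II cell (172 to 214). On CPM, without division by length, the ratios were 388 and 536. In all, 1297 genes were compared that had 100 reads or more in every library. This leaves out genes with fewer reads in the organ, whose ratios could be higher, so the places below hold within these genes only. Of these, 14 had a higher TPM ratio in the type I cell and 11 in the type II cell, and the median ratio over these genes was 1.84 and 1.75. On CPM, 4 and 3 genes were higher. Levels in the organ and in the cells differ in age, in the cell types present and in library type, and in whole tissue fewer cells of a type and less RNA per cell cannot be told apart. Genes at a like level in the organ were rarely read in the cells: of 722 other genes within 1.2-fold of the crista TPM of *PAX2*, 658 (91.1%) had no read in either hair cell and 2 reached 500 TPM in both. A read was found for 7.34% of them in the type I cell and 6.79% in the type II cell. These shares are near the 7.77% and 7.91% over all genes. The 1.2-fold window and the 500 TPM threshold were not part of the planned comparisons. The threshold lies just under the 518 TPM of *PAX2* in the type I cell, so the count of 2 depends on that choice.

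**Figure D2:**
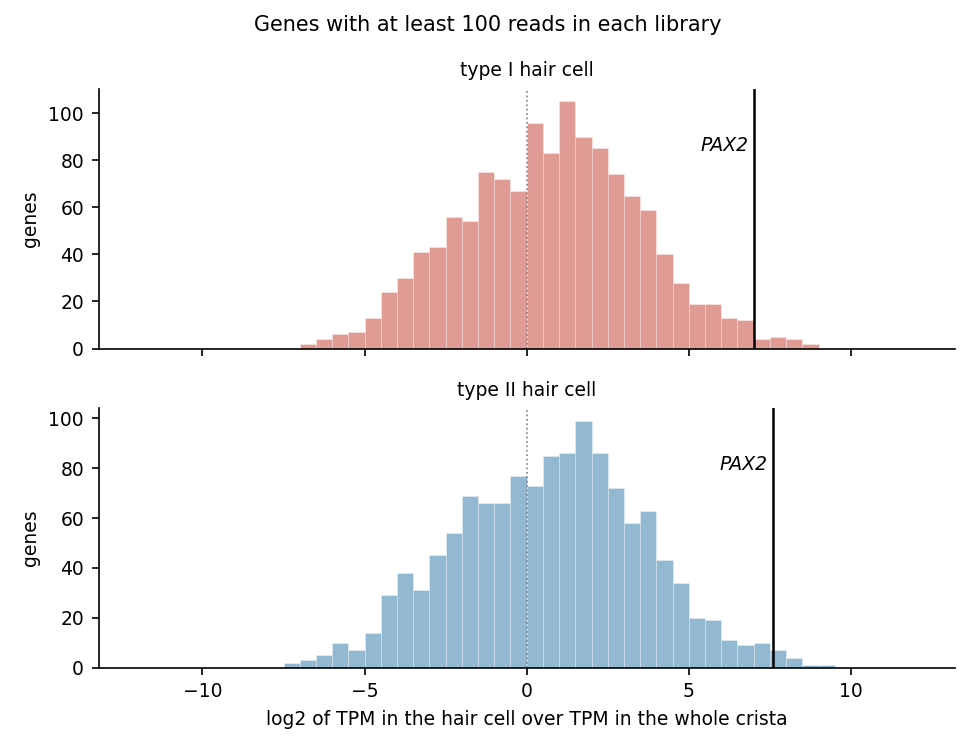
Distribution, over the 1297 genes that had 100 reads or more in every library, of log2 of the hair cell TPM over the crista TPM, for the type I (top) and type II (bottom) hair cell; bars are numbers of genes in bins of 0.5, the dotted line marks equal TPM and the solid line *PAX2*. *PAX2* lies in the right tail in both cells, with a ratio of 128 and 191.

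The length used for *PAX2* differed between the libraries and moved these ratios. Both hair cell libraries gave it a length of 4589 bases and the crista 2309 bases, and RefSeq lists 31 transcripts of the gene. A length that differed from that of the crista by this factor (1.99) or more was seen in 37 of 1751 genes (2.11%) with at least 10 reads in the type I cell and the crista, and in 37 of 1696 genes (2.18%) in the type II cell and the crista. With the effective length of the crista used in every library, the ratio was 275 in the type I cell and 393 in the type II cell, an alternative chosen after the data were seen. RefSeq also places a long non-coding RNA, LOC101749795, across the whole of *PAX2* (17758467 to 18085099). Whether the counting used strand is not given in the sources used here, and reads from overlapping genes cannot be told apart without it.

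Between the hair cells, *PAX2* was lower in the type I cell. Its TPM in the type I cell divided by that in the type II cell was 0.670 (counting interval 0.659 to 0.682), or -0.58 on the log2 scale. Over the 879 genes that reached 1000 reads in each cell, the log2 TPM ratio had a median of -0.06 and an SD of 0.31, and 37 of them (4.21%) had a ratio as low as that of *PAX2* or lower. On CPM the ratio was 0.725 and 54 of the 879 genes (6.14%) were as low or lower. Over the 299 genes with at least 10000 reads in each cell, the log2 TPM ratio had a median of -0.18 and an SD of 0.24. Of these 299, 9 (3.01%) were as low as *PAX2* or lower by TPM and 12 (4.01%) by CPM. With 1 cell of each type, taken at different ages, the difference has no replicate check.

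By distance of log2(TPM + 1) over the 3 libraries, the named genes whose levels were most like those of *PAX2* were *ATN1*, *GGT7* and *CCM2L*, at distances of 0.31, 0.37 and 0.43. *ATN1*, which encodes the corepressor atrophin 1, had 563 TPM in the type I cell, 754 in the type II cell and 5.12 in the crista. *GGT7*, of the gamma-glutamyltransferase family, had 579, 660 and 4.95 TPM. *CCM2L* had 665 and 752 TPM in the hair cells and 3.28 in the crista.

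Genes listed here as markers of other cell types were read in the same hair cell libraries as *PAX2*. Of 11 supporting cell markers, 2 had a read in the type I cell and 1 in the type II cell, with a summed level of 349 and 374 TPM against 2087 in the crista. Nearly all of this was *GJB6*, a connexin, with 15802 and 17844 reads, while *TECTA*, *OTOG*, *OTOGL* and *GJB2* were at 0. Of 7 glia markers, 2 were read in both cells, *SOX10* among them (73.7 and 89.4 TPM in sum, 3192 in the crista), and *MBP* and *PMP22* were at 0. Of 7 mesenchyme markers, the collagens *COL1A1* and *COL1A2* were read in both (480 and 369 TPM in sum, 2771 in the crista), and *COL3A1*, *DCN* and *POSTN* were at 0. The 12 neuron markers gave 4 reads of *SNAP25* in the type II cell and none elsewhere in the cells. The paper reports *SNAP25* as a transcript of the type II hair cell and *GJB6* as one of both hair cells. Those reports come from these same hair cell libraries, so they do not show which cell gave the reads. The paper sets *GJB6* among its discrepancies with earlier work, where it was found only in supporting cells of chicks and mice. Which cells gave the marker reads, *SOX10* included, was not tested. No immune, erythroid or endothelial marker (7, 5 and 6 genes) was read in a hair cell. Over all genes, however, only 7.77% were read in the type I cell and 7.91% in the type II cell, and 5 of 10 genes that every cell uses were at 0. Zeros in these lists thus set no limit on such cells. The part of other cells in the level of *PAX2* was not tested.

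**Figure D3:**
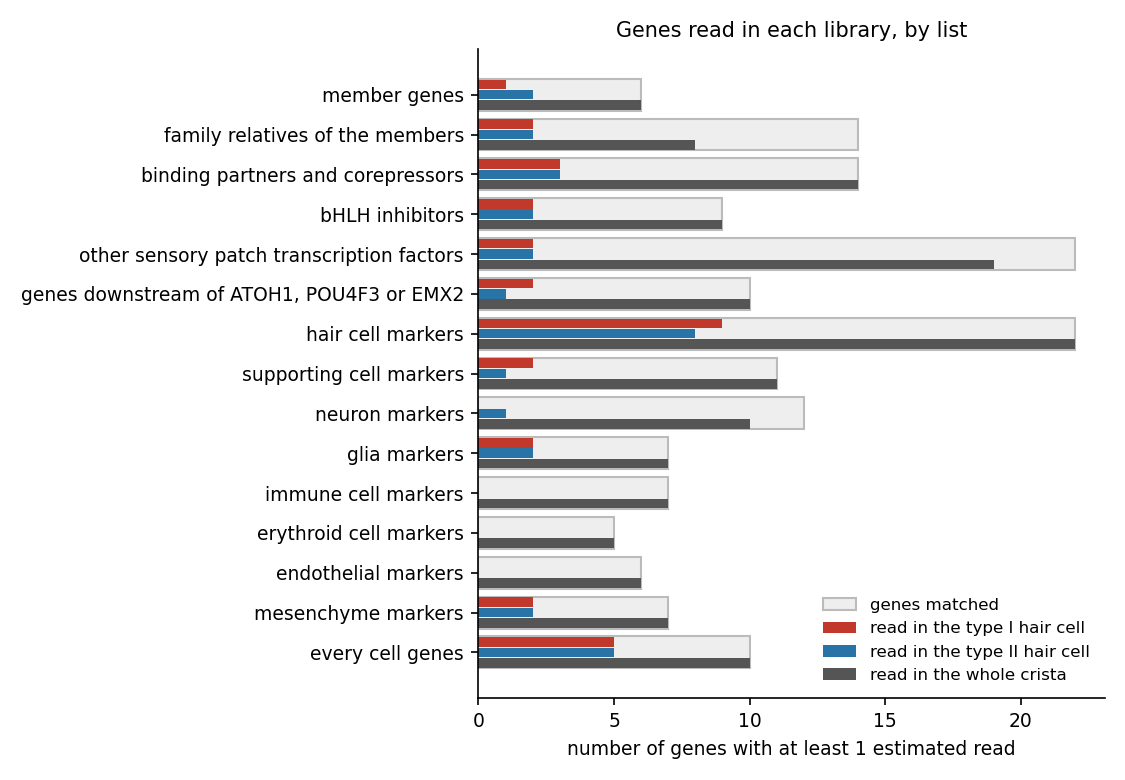
Number of genes with at least 1 estimated read in each library (coloured bars), for the members, the lists of related regulators and the marker lists; the pale bar behind is the number of genes of the list with a symbol in the files. In the list of members 1, 2 and 6 genes were read in the type I cell, the type II cell and the crista.

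*GATA3* (ENSGALG00010005232, chromosome 1, 5010557 to 5039662) was not read in the type I cell (0 estimated reads), had 3 in the type II cell (95% interval 0.619 to 8.77) and 3518 in the crista (3403 to 3636). The 3 reads equal 0.169 TPM, and the limit for the type I cell is 0.156 TPM, so no difference between the hair cells was detectable with so few reads. The TPM ratio of the type II cell to the crista was 0.00407 (counting interval 0.000839 to 0.0119), and the type I library was at least 267-fold lower than the crista library by the limit of 3 reads (187-fold on CPM). At a threshold of 10 reads or of 1 TPM, *GATA3* was no longer detected in the type II cell. Genes most like it in level were *FAIM2*, *VTI1B* and *CARHSP1*, each with 37.5 to 39.1 TPM in the crista and at most 4 reads in a hair cell. RefSeq places 2 long non-coding RNAs that overlap *GATA3*.

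In both hair cells *EYA1*, *GFI1*, *POU4F3* and *EMX2* had 0 estimated reads each. *EYA1* (ENSGALG00010003210, chromosome 2, 116637896 to 116727240) was the most abundant member in the crista, with 8813 reads (95% interval 8630 to 8999) and 85.3 TPM. Its limit of 3 reads, 0.119 TPM in the type I cell and 0.112 TPM in the type II cell, lies at least 714-fold and at least 759-fold lower than the crista by TPM, and at least 470-fold and 520.3-fold lower by CPM. These folds compare reads in the sequenced libraries and set no bound on transcripts in the cell before amplification. *GFI1* (ENSGALG00010021864, chromosome 8, 13869912 to 13880674) had 2317 reads in the crista (2224 to 2413), or 26.0 TPM, and by the same limit its reads were at least 176-fold and at least 187-fold lower in the hair cell libraries by TPM (123-fold and 137-fold by CPM). *POU4F3* (ENSGALG00010012802, chromosome 13, 17459044 to 17461158) had 106 reads in the crista (86.8 to 128), or 6.63 TPM, at least 17.8-fold and at least 18.7-fold above the limits of the hair cell libraries by TPM. By CPM, which does not use the effective length, these bounds for *POU4F3* were 5.65-fold and 6.26-fold. For *EMX2* (ENSGALG00010001948, chromosome 6, 30062195 to 30069586), the 161 reads of the crista (137 to 188), or 4.27 TPM, allow at least 13.9-fold and at least 14.7-fold by TPM and 8.58-fold and 9.51-fold by CPM, and a long non-coding RNA overlaps the end of the gene in RefSeq. The last 2 genes, with the fewest reads in the organ, thus have the weakest limits.

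Zeros at these levels were usual in the hair cells. Of the 8712 genes with a crista TPM within the range of the members, from 4.04 to 85.3, a read was found for 12.8% in the type I cell (exact binomial 95% interval 12.1 to 13.6%) and for 13.0% in the type II cell (12.3 to 13.7%). Against these shares the members had 1 of 6 and 2 of 6. Among genes within 1.2-fold of the crista TPM of *EYA1*, 72.2% had no read in either hair cell, and around *POU4F3* it was 91.3%. The organ holds other cells too and came from younger embryos.

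In the crista all 6 members were detected, and their median of 16.3 TPM compares with 0.443 over all 30108 genes and 12.7 over the genes with a symbol. By TPM the order was *EYA1*, *GATA3*, *GFI1*, *POU4F3*, *EMX2* and *PAX2*. *EYA1* stood 2.06 times above *GATA3* (counting interval 1.98 to 2.14), *GATA3* 1.59 times above *GFI1* (1.51 to 1.68), and *GFI1* 3.93 times above *POU4F3* (3.23 to 4.82). *POU4F3* exceeded *EMX2* by a ratio of 1.55 (1.2 to 2.0), whereas *EMX2* and *PAX2* did not differ beyond counting error (1.06, 0.870 to 1.28).

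The lower places of this order depended on gene length. On CPM the order from the fourth place on was *PAX2* (5.03 CPM), *EMX2* (2.39) and *POU4F3* (1.57). The file gives *POU4F3* a length of 1168 bases and an effective length of 387 bases in the crista, 33.1% of its length, against a median of 84.5% over 16157 genes with at least 10 reads, and 33 of those genes (0.204%) had a share as low. In the hair cell libraries its effective length was 865 and 850 bases. Computed with the full length in place of the effective length, a choice made after the data were seen, *POU4F3* fell from 6.63 to 2.97 TPM, below *PAX2* at 4.80 and *EMX2* at 3.72. On that scale *EMX2* and *POU4F3* did not differ beyond counting error (1.25, 0.974 to 1.62). The places of *EYA1*, *GATA3* and *GFI1* were the same on all 3 scales.

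**Figure D4:**
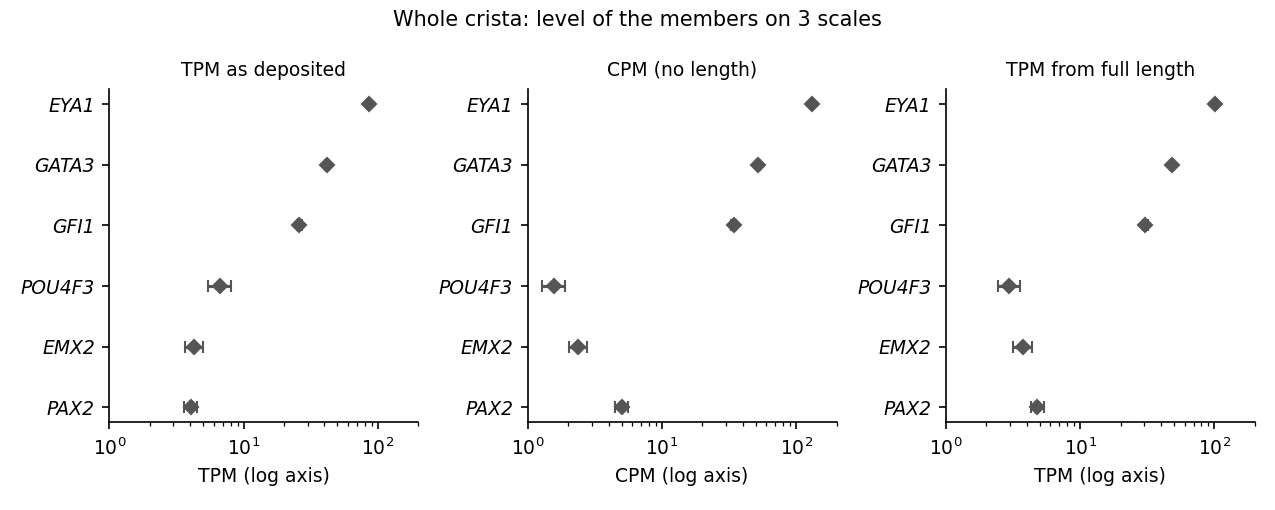
Level of the 6 genes in the crista on 3 scales, each on a log axis with exact Poisson 95% intervals: TPM as deposited, CPM, and TPM computed from the full gene length. *EYA1*, *GATA3* and *GFI1* keep the upper places, and *POU4F3* moves from 6.63 TPM, above *PAX2*, to 1.57 CPM, below it.

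The crista held markers of cells other than hair cells in which some of these genes are also made. GFI1 and GATA3 are both known from blood cells, and in the crista all 7 immune markers were read, at 424 TPM in sum, with the T cell genes *CD3E* and *CD3D* at 28.6 and 31.8 TPM. All 5 erythroid markers were read as well, with a sum of 30051 TPM. The 22 hair cell markers summed to 4494 TPM, of which 3289 TPM was *OCM1*, and their median was 21.5 TPM. The sums were 2087 TPM for the 11 supporting cell markers, 3192 TPM for the 7 glia markers, 2771 TPM for the 7 mesenchyme markers, 317 TPM for the 12 neuron markers, 10 of them read, and 86.3 TPM for the 6 endothelial markers. Which cells gave the reads of *GFI1* and *GATA3* was not tested.

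Family relatives of the members, from a list of 16 of which 14 have a symbol in the files, were read in the hair cells in 2 cases. For this list and those below, the share of all genes with a read was 7.77% in the type I cell, 7.91% in the type II cell and 59.8% in the crista. *EYA4*, a coactivator of the EYA family whose loss causes deafness in humans, had 543 estimated reads in the type I cell (20.9 TPM), 365 in the type II cell (13.2 TPM) and 982 in the crista (9.49 TPM). In the hair cells, then, *EYA4* was read and *EYA1* was not, while in the organ *EYA1* stood above *EYA4*. *EYA3*, at 34.6 TPM in the crista, and *EYA2*, at 6.86 TPM, were at 0 in both cells. *GATA2*, a zinc finger factor of the GATA family, had 9 reads in the type I (95% interval 4.12 to 17.1) and 3 in the type II cell (0.619 to 8.77), and 30.7 TPM in the crista. *GFI1B*, *POU4F1*, *POU4F2*, *PAX5* and *EMX1* had none in the cells, and of these *GFI1B* alone was read in the organ, with 316 reads. How the counting placed reads shared between relatives was not examined.

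Of the binding partners and corepressors, 14 of 16 have a symbol in the files, and 3 were read in each hair cell. The histone deacetylase genes *HDAC1* (124 and 95 reads) and *HDAC2* (228 and 193 reads) were among them. *TCF3* and *TCF12*, which encode the E proteins that pair with ATOH1, stood at 139 and 294 TPM in the crista and at 0 in the cells, as did *KDM1A*, a demethylase recruited by GFI1, at 48.1 TPM. All 14 were read in the organ, with a median of 13.9 TPM.

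Inhibitors of bHLH factors numbered 9 genes with a symbol of 10 listed. *HES4*, a HES repressor, had 926 reads in the type I cell and 929 in the type II cell (93.0 and 96.7 TPM) and 21.1 TPM in the crista. *ID2*, which blocks bHLH factors by binding their E protein partners, had 4 reads (95% interval 1.09 to 10.2) and 7 (2.82 to 14.4) in the cells but 337 TPM in the crista. The other 7, including *ID1*, *ID4*, *HEYL* and *HES1* at 157, 109, 69.4 and 66.6 TPM in the crista, had no read in a hair cell.

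Other regulators of the hair cell and the sensory patch were represented by 22 genes of 23 listed, and 2 were read in the hair cells. *SOX9*, an early otic factor, had 5858 and 5148 reads (201 and 170 TPM) and 74.8 TPM in the crista. *IKZF2*, which encodes Helios, a zinc finger factor of outer hair cells in the mouse, had 792 and 638 reads, and its level of 37.8 and 30.1 TPM compares with 4.99 TPM in the organ. No read of *SOX2*, which is also on the supporting cell list, was counted in the type I or the type II cell. The crista gave 90 reads of it (1.70 TPM). The paper, by contrast, lists the *Sox2* transcript for the type I cell and for the type II cell. The reason for this difference was not tested. In the crista 19 of the 22 were detected. The highest there were *LMX1A* at 146, *HMX2* at 95.2, *SOX9* at 74.8 and *NR2F2* at 36.8 TPM, and apart from *SOX9* the 5 highest were all at 0 in the cells.

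Over these lists and the members together, 65 genes were compared, and 10 had a read in the type I cell and 11 in the type II cell, against 56 in the crista. Over all genes the shares with a read were 7.77%, 7.91% and 59.8% in the same order. Within the members' range of crista TPM they were 12.8% in the type I cell and 13.0% in the type II cell. At least 10 reads were reached by 8 genes, the same 8 in each cell. Within the members' range of crista TPM, 10.2% of genes reached 10 reads in the type I cell and 9.75% in the type II cell. The paper reports that most genes it found in a hair cell were common to both cells. The full overlap of the 8 is therefore not particular to these regulators. *PAX2* had the most reads of them, and it was the 1 gene of the 8 with a higher CPM in the type II cell, the other 7 being higher in the type I cell. On TPM, *HES4* also lay on the side of the type II cell, giving 6 and 2. The type I to type II CPM ratio had a median of 1.03 in the 879 genes that reached 1000 reads per cell. Most of the 8 had fewer reads than that. Scaling by the median ratio in place of CPM moved *PAX2* from 0.725 to 0.624, and lowers every gene's ratio by the same factor. The split thus depends on library scaling, and it was not recounted on that scale. For 5 of the 8 (*PAX2*, *SOX9*, *HES4*, *IKZF2* and *EYA4*) the TPM exceeded that of the organ in both hair cells, and for *HDAC1* and *HDAC2* in neither. Among the 1297 genes with 100 reads or more in every library, 61.9% exceeded the organ in the type I cell and 60.2% in the type II cell. The count of 5 of 8 lies near these shares. They were taken for each cell singly, however, whereas the 5 genes had to exceed the organ in both cells. The 8 genes also needed only 10 reads, so the sets are not fully alike.

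**Figure D5:**
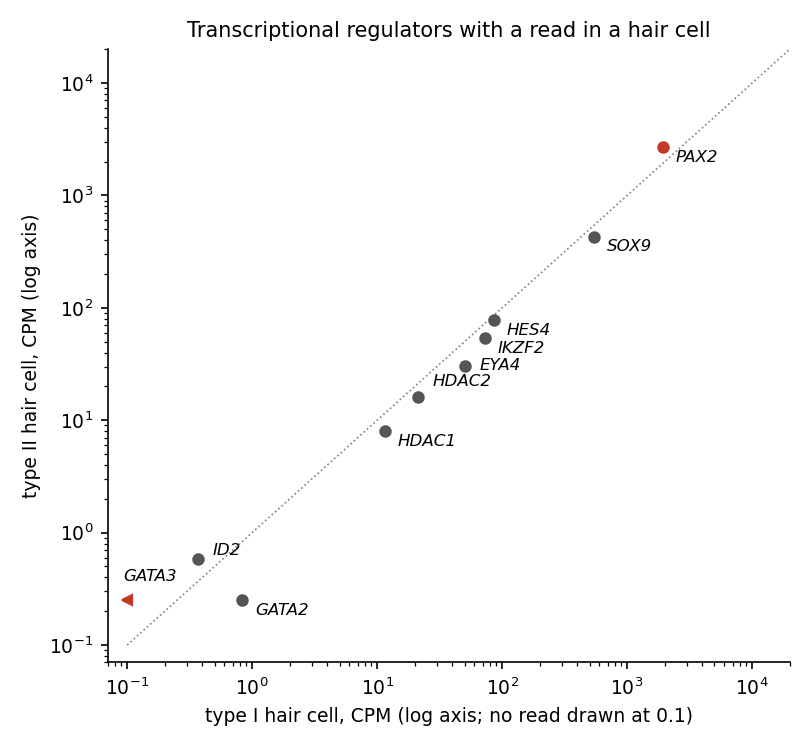
CPM (log axes) in the type I cell and the type II cell of 10 of the 11 listed regulators with a read in either; members are red, the others grey, the dotted line marks equal CPM, and the triangle is *GATA3*, with no read in the type I cell. *PAX2* lies above the line at 1953 and 2694 CPM, and the other plotted genes with at least 10 reads lie below it.

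Of 10 genes that act downstream of ATOH1, POU4F3 or EMX2, according to work in the mouse, 2 were read in a hair cell. Over all genes, 7.77% were read in the type I cell and 7.91% in the type II cell. *JAG2*, a Notch ligand made by hair cells, had 16692 reads in the type I cell and 24141 in the type II cell, or 514 and 709 TPM, and 39.3 TPM in the crista. Its type I to type II TPM ratio was 0.725 (counting interval 0.710 to 0.739), on the same side of 1 as that of *PAX2*. The median TPM ratio was also below 1, at 0.886 over the 299 genes with at least 10000 reads in each cell. Over the 879 genes with at least 1000 reads it was 0.957, and *JAG2* lay below both medians. On CPM these medians were 0.953 and 1.03, so the usual side of 1 depended on the scale and on the threshold of reads. *STK32A*, a kinase gene that EMX2 holds down in the mouse, had 7 reads (95% interval 2.82 to 14.4) in the type I cell and none in the type II cell, where the limit is 3 reads, against 51.5 TPM in the crista. *RBM24*, *HES6*, *DLL1*, *LHX3* and *NR2F2* had no read in the cells and were all read in the organ.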

How the data were processed

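The contents of single hair cells were reverse transcribed and amplified by SMART-Seq, and transposase-made libraries gave single reads. The whole-crista RNA was also reverse transcribed and amplified with a SMART-Seq kit, and was sequenced as read pairs. For the whole organ the authors used the Illumina DRAGEN RNA pipeline with default settings and Ensembl GRCg7b. The submitters' processing notes name DRAGEN and bcl2fastq 2.20.0.422 for all samples, with galGal4 as a further build. For each of 30108 genes the files deposited by the authors give a length and an estimated count (not always a whole number). Levels within a library were deposited as TPM. Neither is normalized between libraries.

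The 6 members and the genes of 15 lists were joined by symbol to the identifiers. A symbol under more than 1 identifier (*TCF4*, *HES6*, *STARD10*) was summed. Estimated counts were rounded for intervals. Positions and overlapping genes come from the RefSeq annotation of GRCg7b, matched by symbol. Named are the members, list genes with a read in a hair cell or among the 5 highest of their list in the crista, markers at 0, and, for members read in a hair cell, the 3 nearest genes by log2(TPM + 1). Other list genes were named after their values were seen, and some results are not reported here. Members and lists were chosen with earlier results of these data known. Alternatives were detection thresholds, CPM, CPM without 13 mitochondrial genes, the median ratio, and other lengths. The work used scipy 1.17.1, pandas 2.3.3 and numpy 2.4.6 in Python 3.11.15, with plots by matplotlib 3.10.9. The intervals were tested on simulated Poisson counts only. Such counts hold no spread from amplification, so the test checks the computation and not how well the intervals suit these libraries.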

Additional observations from a re-analysis of the deposited data

How the results depend on the processing

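Of the counts of members detected, that of the type II hair cell moved, from 2 to 1 at a threshold of 10 reads and to 1 at 1 TPM. The type I to type II ratio of *PAX2* stayed below 1, at 0.725 on CPM, 0.710 on CPM without mitochondrial genes, 0.624 by the median ratio and 0.699 with the whole-crista length. The ratio of *PAX2* to the whole crista was 388, 407 and 275 for the type I cell, and 536, 573 and 393 for the type II cell, on CPM, on CPM without mitochondrial genes and with the whole-crista length. In the order of the crista, *PAX2* moved to place 4 and *POU4F3* to place 6 on CPM and with the full length. At 3 reads, the share of genes read within the members' range fell to 11.4% (type I cell) and 11.4% (type II cell). The settings with the whole-crista length and the full length were chosen after the data were seen. The other 23 values computed under an alternative moved by less than their counting interval or, for counts, by less than 1.5 times.

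No paired analysis was possible because each condition has 1 library. Low counts limit the calls for *GATA3*, *GATA2*, *ID2* and *STK32A*, each with fewer than 10 reads in the hair cells. Few reads in the crista likewise weaken the limits for *POU4F3* and *EMX2*. Whether sequencing depth or the capture of RNA from a single cell set the low counts was not tested. On CPM in place of TPM, the lower bounds on the fold between crista and hair cell libraries were smaller for every member with 0 reads.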
